A study of Mus musculus with 2 samples.

Results

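The intermediate bins are stretches of 100 kb in which 5-hydroxymethylcytosine (5hmC) of mouse kidney stood near the genome-wide mean. Of 23419 fixed 100 kb windows of chromosomes 1 to 19 with at least 50 input fragments, 6849 (29.2%) had a log2 ratio of hMeDIP to input from -0.5 to 0.5. They covered 684.9 Mb. The members were chosen by that bin ratio, which is given only as a description. Each was then read in 10 kb steps, to see whether a middle value was even or made of high and low pieces.

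Most intermediate bins were uneven in 10 kb steps, and fewer in larger pieces. Of the 6738 that could be tested, 5573 (82.7%) had steps that differed by more than counting error, against 66.6% of all bins tested. In pieces of 50 kb the share was 37.7%. It fell in the other classes too, from 88.6% to 45.9% in bins above 0.5 and from 45.3% to 14.2% in bins below -0.5. In 3426 of the 6738 (50.8%, against 19.1% of all bins tested) at least 1 step was called above and at least 1 below the limits of the class, by a rule that includes the counting error of the step. Pooled over bins, the step values made 1 broad hump, a shape that does not show whether single bins hold separate levels. Few steps were as high as a typical step of a 5hmC-rich bin or as low as a typical step of a 5hmC-poor bin. This comes in part with the choice of all these bins by their ratio.

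The DNA came from kidneys of male C57BL/6 mice, an inbred laboratory strain, at 6 weeks of age. The assay, hMeDIP-seq, sequences the DNA fragments that an antibody against 5hmC recovers. The groups were 1 hMeDIP library made with a 5hmC antibody from Active Motif and 1 input library made without antibody. Strain, age, sex and organ were the same in both, and the number of animals is not given.

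TET enzymes make 5hmC by oxidising 5-methylcytosine, the common methylated base of mammalian DNA. The base is a step on the way to unmethylated cytosine, and it also persists in tissues of slowly dividing cells such as kidney. In such tissues 5hmC is known mainly from the bodies of expressed genes and from enhancers, and it is scarce in silent heterochromatin. A kidney is a mixture of many cell types, so a middle value can stand for a middle level in all cells or for high and low levels in different cells. This assay on whole tissue cannot tell them apart.

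The ratio of a bin is its share of all hMeDIP fragments divided by its share of all input fragments, so that a ratio of 1, or 0 on the log2 scale, is the mean of these libraries. The bins above 0.5, called high, numbered 5360, and those below -0.5, called low, numbered 11210. The spread of the steps around the ratio of their bin was not used to choose them.

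The limits fall in a continuous distribution. Coordinates are on mouse build mm9. Just inside the lower limit lay bins on chromosome 1, 179800001 to 179900000, and chromosome 14, 33500001 to 33600000, both at -0.4998 on the log2 scale. Just outside it lay chromosome 14, 100700001 to 100800000, and chromosome 9, 65800001 to 65900000, both at -0.5005. At the upper limit the nearest bins inside were chromosome 3, 130600001 to 130700000, at 0.49998 and chromosome 6, 37200001 to 37300000, at 0.49994. The nearest outside were chromosome 12, 73100001 to 73200000, at 0.50009 and chromosome 6, 91100001 to 91200000, at 0.50010. The 95% interval of the ratio reached past a limit in 2679 intermediate bins (39.1%), so these bins could belong to a neighbouring class.

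Depth was 11424027 fragments for hMeDIP and 8316507 for input. The median intermediate bin had 519 fragments from the first and 375 from the second. Medians were 966 and 364 in high bins and 161 and 331 in low bins. With no replicate libraries, every difference is between these libraries only. Intervals of ratios are exact 95% (Clopper-Pearson) intervals that cover the counting error of fragments only. Intervals of shares of bins are of the same kind but treat bins as independent, though neighbouring bins come from the same libraries. They do not measure variation between animals or libraries. Lacking molecular identifiers, reads may repeat 1 molecule. Since the classes were cut from the same ratio and each group has 1 library, the differences between classes are described and not tested.

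Each bin was split into 10 steps of 10 kb. A step with at least 10 input fragments was usable, and bins with at least 8 usable steps were tested. This left out 111 intermediate bins. Unevenness was tested with a chi-square test of whether the steps of a bin shared 1 ratio of hMeDIP to input fragments, at a Benjamini-Hochberg adjusted p under 0.05 over all 22572 tested bins. Among all tested bins 66.6% were uneven by this test, against the 82.7% (81.8 to 83.6) of intermediate bins. High bins were uneven in 88.6% and low bins in 45.3%. The test gains power with the number of fragments, which was lowest in low bins.

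A measure that allows for depth gave a closer picture. The SD of the step log2 ratios within a bin was 0.65 (root mean square over the intermediate bins), of which counting accounts for 0.33. The rest, called excess SD here, was 0.56, equal to a 1.47-fold spread. It was 0.58 in high bins and 0.45 in low bins. Within the intermediate class the excess SD changed little with the ratio of the bin, from 0.54 at -0.5 to -0.25 to 0.57 at 0.25 to 0.5. By this measure the value of intermediate bins did not exceed that of high bins.

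**Figure D1:**
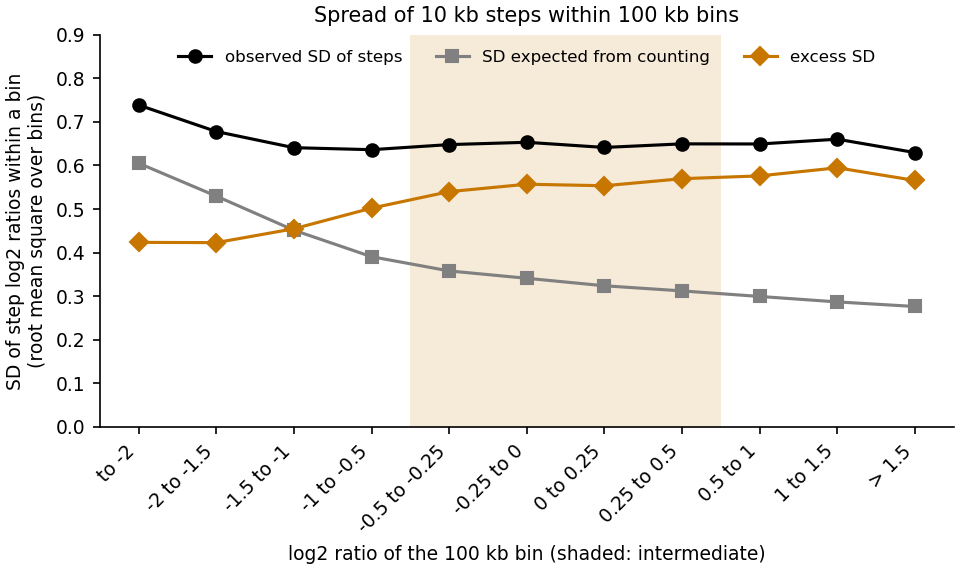
SD of the log2 ratios of 10 kb steps within 100 kb bins (y axis, root mean square over bins) by the log2 ratio of the bin (x axis, intermediate classes shaded), as observed, as counting alone gives and as the excess over counting. The excess SD lies between 0.54 and 0.57 in the 4 shaded classes, and counting accounts for more of the spread in the bins with low ratios.

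The 1165 intermediate bins that did not pass the test were not all even. Their excess SD was 0.23, against 0.60 in the uneven bins. The order of these values comes with the split, since the test used the same step counts. The depth of both sets was nearly the same, with medians of 376 and 375 input fragments. When the intermediate bins were ranked by input and split into 3 sets of equal size, 82.6%, 83.1% and 82.5% were uneven from the lowest to the highest input. The excess SD in these sets was 0.60, 0.55 and 0.52. The input library by itself was also uneven over the 10 steps of intermediate bins, with a median variance of 1.64 times the mean, where counting alone gives 1. The hMeDIP library stood at 8.48. The part of uneven input in the result was not tested.

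The 66713 usable steps of intermediate bins had a median log2 ratio of -0.06, with quartiles of -0.52 and 0.38. The 5th and 95th percentiles were -1.23 and 0.99, a 4.67-fold range that includes counting error. Of these steps 54.8% lay within the limits of -0.5 and 0.5, 19.3% above and 25.9% below. Only 6.09% were higher than the median step of high bins, at 0.93, and 2.88% were lower than the median step of low bins, at -1.43. The classes were cut by bin ratio, so these small shares come in part with that choice. The most frequent values lay at -0.25 to 0, and the frequency fell on both sides without another maximum. These steps are pooled over bins chosen to lie near 0 and carry counting error, so the shape does not show whether single bins hold separate levels.

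**Figure D2:**
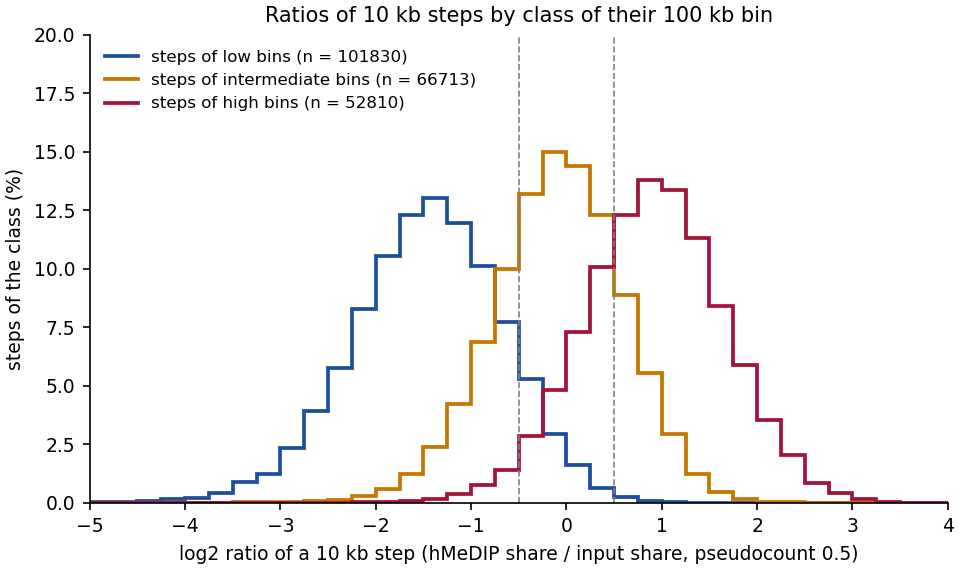
Share of 10 kb steps (y axis, percent of the steps of each class) by the log2 ratio of the step (x axis, pseudocount of 0.5 fragments), for steps of low, intermediate and high bins. Dashed lines mark -0.5 and 0.5. The steps of intermediate bins form 1 hump with 54.8% of them between the lines, and its flanks reach into the range of the other classes.

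Calls of single steps needed a log2 ratio above 0.5 (high) or below -0.5 (low) and an interval without 0. In intermediate bins 10440 steps (15.6%) were high and 11271 (16.9%) were low, against 21.2% high and 41.6% low among the usable steps of all tested bins. Counting alone would call about 5008 high and 3682 low steps in intermediate bins if each step had the ratio of its bin. The count of mixed bins, those with both kinds of step, was 3426. In all tested bins the share that was mixed was 19.1%, and in intermediate bins 50.8% (49.6 to 52.0). If each step had the ratio of its bin, counting would make about 95.7 intermediate bins (1.42%) mixed. High bins were mixed in 12.9% and low bins in 1.95%. A bin near 0 lies between both limits, so part of this contrast comes with the choice of the members.

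Of the other tested intermediate bins, 1492 (22.1%, against 27.1% of all tested bins) had high steps and no low step. Another 1655 (24.6%, against 53.1% of all tested bins) had low steps and no high step. Only 165 (2.45%, 2.09 to 2.85) had no called step, against 0.731% of all tested bins. Counting alone would leave about 2343 intermediate bins (34.8%) without a called step, but only about 3.08 high and 21.0 low bins. The contrast with all tested bins thus comes with the choice of the members. None of 5304 high bins and none of 10530 low bins lacked one, which allows shares of up to 0.0566% and 0.0285% at 3 bins, the limit used for counts of 0. These calls rest on the scaling. Scaled to the fragments outside peaks, which adds 0.40 to every log2 ratio, the same intermediate bins held 22350 high and 3817 low steps, so that 85.4% of the calls were high and not 48.1%. When the intermediate bins were chosen again under that scaling, 44.7% were mixed and 49.7% of the calls were high.

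Mixed bins usually had few called steps, with medians of 2 high and 2 low. The most frequent patterns were 1 high with 1 low step (463 bins) and 2 high with 1 low step (432 bins). In 885 bins there were at least 2 of each. Among these, all high steps lay on 1 side of all low steps in 541 (61.1%), and they were interleaved in 344 (38.9%). The share that a random order would give is not stated here, so these shares are only a description.

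Bins with the largest excess SD showed what the extreme of this spread looks like. The widest spread was on chromosome 15, 68700001 to 68800000, at 0.47 (0.30 to 0.65) on the log2 scale, from 777 hMeDIP and 408 input fragments. Its excess SD was 1.72. Its first 5 steps were low, at -1.85, -2.71, -2.34, -1.26 and -1.04. The sixth stood at 0.04 and the last 4 were high, at 2.06, 1.72, 1.22 and 1.31. The hMeDIP fragments per step ran from 8 to 189, while the input held 33 to 48. All 9 peaks of this bin lay in its last 5 steps. The bin thus crossed from low to high sequence within 100 kb.

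A similar border crossed chromosome 5, 104900001 to 105000000, at 0.33 (0.13 to 0.53) from 569 hMeDIP and 330 input fragments. Its first step, with 181 hMeDIP and 17 input fragments, stood at 2.95 (2.24 to 3.77), and its ninth, with 10 and 50, at -2.78 (-3.93 to -1.78). It lay between a high and a low bin. On chromosome 7, 136700001 to 136800000, the last 3 steps were high, at 0.91, 1.10 and 1.15. The first step there held 1 hMeDIP and 21 input fragments, and its value of -4.85 rests on that single fragment. The bin as a whole was at 0.10 (-0.08 to 0.28).

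The second in order, chromosome 12, 73200001 to 73300000, held 1 step, 73270001 to 73280000, with 0 hMeDIP and 18 input fragments. At 3 hMeDIP fragments, the limit used for a count of 0, its ratio would be 0.121, and its exact interval ended at -2.59 on the log2 scale. The excess SD of the bin, 1.62, includes that step with a value set by the pseudocount of 0.5 fragments. The other 9 steps ran from -1.63 to 0.65. Its bin ratio was -0.45 (-0.67 to -0.23), from 352 hMeDIP and 350 input fragments.

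The most even bins looked different. They had the lowest chi-square per degree of freedom, and the log2 ratios of all 4 lay above 0. The first, on chromosome 7, 105800001 to 105900000, held 652 hMeDIP and 410 input fragments and stood at 0.21 (0.03 to 0.39). Its 10 steps read 0.26, 0.34, 0.08, 0.06, 0.52, 0.25, 0.06, 0.24, 0.17 and 0.14, so they all lay on 1 side of 0 and close to the bin value. It held 2 peaks.

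The other even bins kept the same form. Steps of chromosome 17, 73500001 to 73600000, ran from 0.13 to 0.63 around 0.33 (0.14 to 0.51). On chromosome 1, 180600001 to 180700000, they ran from -0.02 to 0.56 around 0.25 (0.06 to 0.43). On chromosome 15, 12600001 to 12700000, they ran from 0.12 to 0.61 around 0.40 (0.22 to 0.58). In the order given, these bins held 1, 1 and 2 steps called high and no low step. A called step alone thus does not mark an uneven bin. The SD of the steps in these 4 bins was 0.14 to 0.17, below the 0.29 to 0.31 that counting gives. They were picked as extremes of the class.

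**Figure D3:**
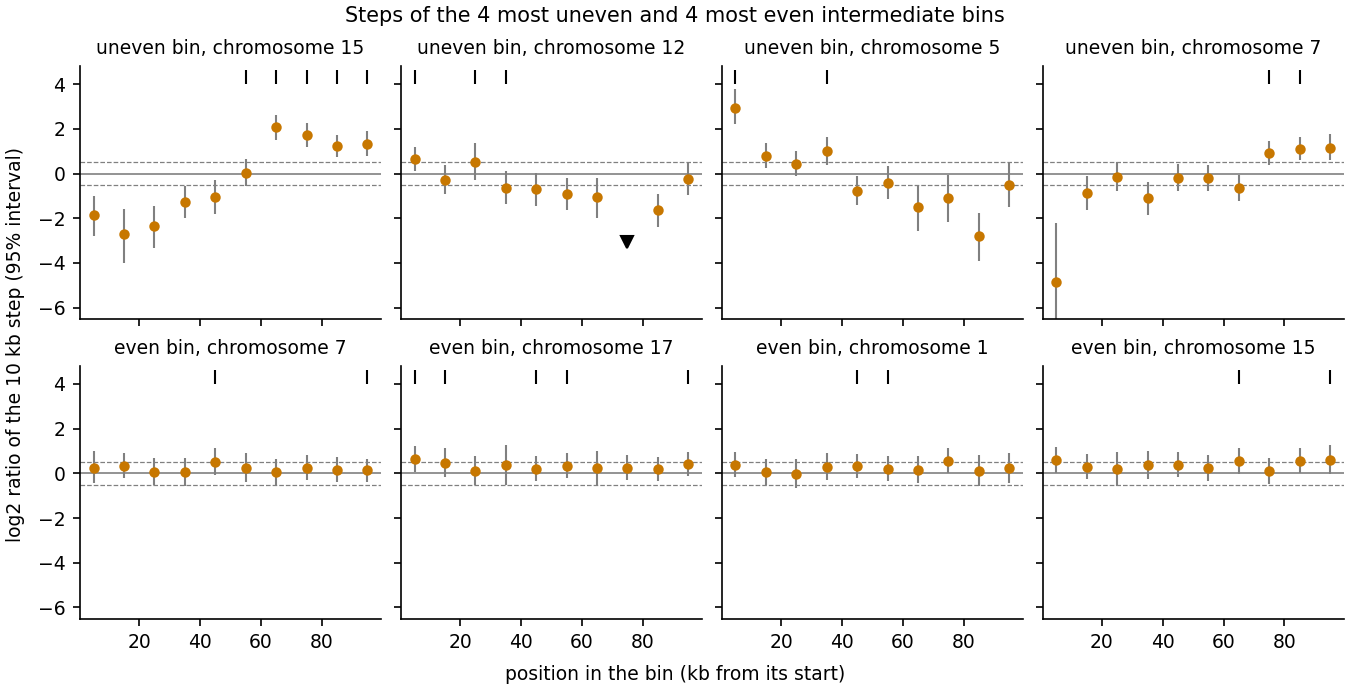
Log2 ratio of each 10 kb step with its 95% interval (y axis) by position in the bin (x axis, kb) for the 4 intermediate bins with the largest excess SD (upper row) and the 4 with the lowest chi-square per degree of freedom (lower row). Ticks at the top mark steps with a peak midpoint, dashed lines -0.5 and 0.5, and the triangle, for the step with 0 hMeDIP and 18 input fragments, the value of -3.04 that 3 hMeDIP fragments would give. The interval of the first step of the upper chromosome 7 bin runs below the axis. Steps of the upper row pass both dashed lines, though the highest of the chromosome 12 bin stands at only 0.65. Those of the lower row stay between -0.02 and 0.63.

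The extremes of a noisy set overstate the real spread, so the steps of each bin were also ranked on reads of the forward strand and measured on reads of the reverse strand. In 6169 intermediate bins with 10 usable steps, the 3 steps that ranked highest had a pooled ratio of 1.31 (1.305 to 1.316) on the other strand. The 3 that ranked lowest had 0.793 (0.790 to 0.797), a 1.65-fold difference. The higher ranked steps were higher on the other strand in 5532 bins (89.7%). With the strands exchanged the ratios were 1.31 and 0.794. The same difference was 1.76-fold in high bins (2.73 against 1.55) and 1.39-fold in low bins (0.503 against 0.363). On the log2 scale these sets of 3 steps stood at 0.39 and -0.33 in intermediate bins, at 1.45 and 0.63 in high bins and at -0.99 and -1.46 in low bins. The single top-ranked step of intermediate bins stood at 0.55 on the other strand, above the limit of 0.5, and the single lowest at -0.47.

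The covariance between strands gave an excess SD of 0.51 in intermediate bins, 0.55 in high bins and 0.39 in low bins, without assuming a counting error. Relative to the covariance of a step with itself, steps 10 kb apart kept 0.283 and steps 20 kb apart 0.0329 in intermediate bins. In low bins neighbouring steps kept 0.0632. Deviations within a bin sum to 0, which lowers these values at every distance beyond 0, so they do not give the reach of the variation. In steps of 20 kb the excess SD of intermediate bins was 0.47, with 67.9% uneven, and in 50 kb pieces it was 0.40, with 37.7% uneven. In 50 kb pieces high bins had an excess SD of 0.43, with 45.9% uneven, and low bins 0.27, with 14.2% uneven. The 20 kb steps left 1701 intermediate bins mixed and the 50 kb pieces 181.

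The authors' peaks of 5hmC were present in most intermediate bins but covered little of them. These bins held 19575 of 92319 autosomal peaks (21.2%), a median of 2 per bin with quartiles of 1 and 4, and at most 12. The median share of a bin that peaks covered was 2.61%, against 15.3% in high bins. High bins had a median of 12 peaks and low bins of 0. Peaks of intermediate bins had a median width of 993 bp, between 1218 bp in high and 835 bp in low bins, and only 3 of them reached 5 kb, against 558 in high bins. The authors' peak score had a median of 72.35 in intermediate bins and 92.28 in high bins. The bin ratio that chose the members includes what lies in peaks, so none of these contrasts is independent of the choice.

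Inside peaks the 3 classes were close. The peaks were deposited for the same hMeDIP sample, and a peak caller selects sequence of high signal. Closeness inside peaks thus comes in part with that selection. The pooled ratio in peaks was 4.96 (4.92 to 5.00) in intermediate bins, 5.34 (5.32 to 5.36) in high bins and 5.29 (5.15 to 5.44) in low bins. Outside peaks the values lay further apart. At 20 kb or more from any peak edge the ratio was 0.805 (0.803 to 0.807) in intermediate bins, 1.03 (1.02 to 1.04) in high bins and 0.393 (0.392 to 0.394) in low bins. At 5 to 20 kb it was 0.920, 1.21 and 0.526, and within 5 kb it was 1.09, 1.46 and 0.608. In intermediate bins peaks took 14.2% of the hMeDIP fragments and 2.95% of the input, and all sequence outside peaks stood at 0.912 (0.910 to 0.913). Since most fragments of intermediate bins lie outside peaks, the order of the classes there comes with the choice by the bin ratio.

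**Figure D4:**
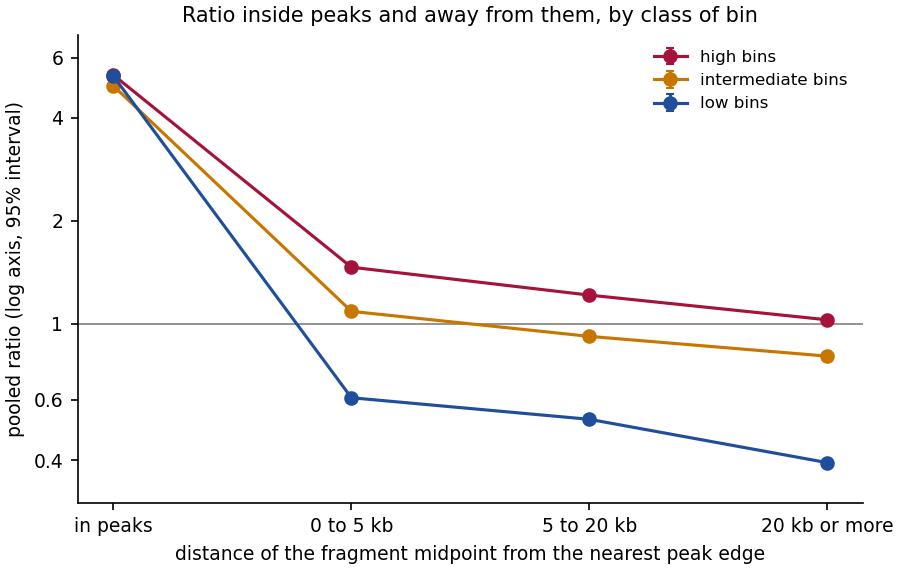
Pooled ratio of hMeDIP to input share (y axis, log axis, with 95% intervals smaller than the points) inside peaks and in 3 ranges of distance from the nearest peak edge (x axis), for high, intermediate and low bins. The classes lie between 4.96 and 5.34 inside peaks and spread to 1.03, 0.805 and 0.393 at 20 kb or more.

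High steps mostly held a peak, but many steps with a peak were not high. The peaks were deposited for the same hMeDIP sample as the ratios. Of the 10440 high steps of intermediate bins 7987 (76.5%) held a peak midpoint, against 53 (0.470%) of the 11271 low steps. The same shares were 88.2% and 0.627% in high bins and 76.9% and 0.224% in low bins, so this was not particular to the class. A further 7409 steps of intermediate bins with a peak midpoint were neither high nor low. The median log2 ratio in intermediate bins was -0.25 in steps without a peak midpoint, 0.50 with 1, 0.95 with 2 and 1.26 with 3. In low bins a step with 1 peak midpoint was at -0.09, and in high bins at 0.87. The other 2453 high steps of intermediate bins held no peak midpoint.

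Unevenness remained when the peaks were taken away. With the fragments in peaks left out, 60.7% of 6737 intermediate bins were uneven, against 43.7% of all bins tested that way, and the excess SD was 0.45. In high bins the same step lowered the excess SD from 0.58 to 0.35 and the share of uneven bins from 88.6% to 36.4%. In low bins, which have few peaks, it went from 0.45 to 0.43. Outside peaks the excess SD of intermediate bins was thus the largest of the 3 classes, a difference that was not tested. Leaving out peaks also removes fragments, most of all in high bins, and so lowers the power of the test there. Without their peaks 561 intermediate bins (8.19%) fell below -0.5 under the same scaling.

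The number of peaks went with the bin value more than with its unevenness. Across intermediate bins Spearman's rho was 0.73 between peak number and log2 ratio, which share fragments, and 0.25 between peak number and excess SD. The excess SD of bins with 1 peak was 0.50, with 3 peaks 0.57 and with 8 or more 0.70. The 3 bins with most peaks held 11 each, and all 3 stood near the upper limit. Chromosome 3, 100900001 to 101000000, was at 0.43 (0.26 to 0.60) with steps from -1.68 to 1.72. Chromosome 3, 129500001 to 129600000, was at 0.48 (0.31 to 0.66) with steps from -0.70 to 1.73, and 6 of its peak midpoints lay in the first step. Chromosome 17, 44200001 to 44300000, was at 0.49 (0.32 to 0.66) with steps from -0.66 to 1.10 and peaks in 8 of 10 steps.

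Peak midpoints were lacking in 768 intermediate bins (11.2%, 10.5 to 12.0), against 44.0% of all bins. In low bins the share was 85.0%, and 1 high bin had none. These 768 bins had a pooled ratio of 0.828 (0.823 to 0.832), while the low bins without a peak midpoint had 0.385. Of the 724 that could be tested, 459 (63.4%) were uneven and 147 (20.3%) mixed, and their excess SD was 0.44. They were not spread evenly over the class: 32.0% of bins from -0.5 to -0.25 lacked a peak midpoint, and 0.221% of those from 0.25 to 0.5.

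Among bins without a peak midpoint, those closest to the genome-wide mean had the following step values. Chromosome 19, 32100001 to 32200000, stood at 0.00 (-0.21 to 0.20), with 477 hMeDIP and 348 input fragments and steps from -0.87 at its start to 0.65 in the ninth step. Chromosome 2, 93800001 to 93900000, at 0.01 (-0.19 to 0.20), had steps from -0.74 to 0.62 and did not pass the test of unevenness (chi-square test, Benjamini-Hochberg adjusted p = 0.125). Chromosome 2, 10200001 to 10300000, at 0.01 (-0.19 to 0.21), had its highest step, 0.63, at the start and its lowest, -0.74, in the eighth place. Peaks overlapped 0.454% of the last of these bins. Their excess SDs were 0.36, 0.26 and 0.37, below the 0.56 of the class.

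Neighbouring bins were then used to see where intermediate bins lie. Of the 6849, 2385 (34.8%) stood between 2 intermediate bins, 1776 (25.9%) between an intermediate and a high bin and 1372 between an intermediate and a low bin. Only 404 (5.90%) lay directly between a low and a high bin. A further 493 were flanked by 2 high bins and 362 by 2 low bins. Single bins directly between a low and a high bin were thus a small part of the class. The same shares over all bins are not given here, so these counts do not show enrichment or depletion.

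The 404 bins between a low and a high bin were the least even of these 6 kinds, with 89.4% uneven, 65.6% mixed and an excess SD of 0.66. Read from the low to the high side, their pooled log2 ratio went from -0.42 (-0.45 to -0.38) in the first step through -0.10 in the fifth to 0.54 (0.51 to 0.57) in the last. The 50 kb on the high side was higher in 341 of the 404 (84.4%, 80.5 to 87.8), by a median of 0.53. Bins between 2 intermediate bins showed a flat mean profile, from 0.01 to 0.05, while their own steps varied with an excess SD of 0.52 and 49.7% were mixed. A flat mean over 2385 bins can hide uneven single bins, since their high and low steps lie at different places.

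Bins enclosed by 1 class bent toward it at their edges. Between 2 high bins the pooled log2 ratio was 0.37 and 0.42 in the outer steps and 0.18 in the fifth and the sixth. Between 2 low bins it was -0.29 and -0.36 in the outer steps and -0.18 and -0.19 in the middle. The shares that were mixed, 49.4% and 47.6%, were close to that of bins between 2 intermediate bins.

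**Figure D5:**
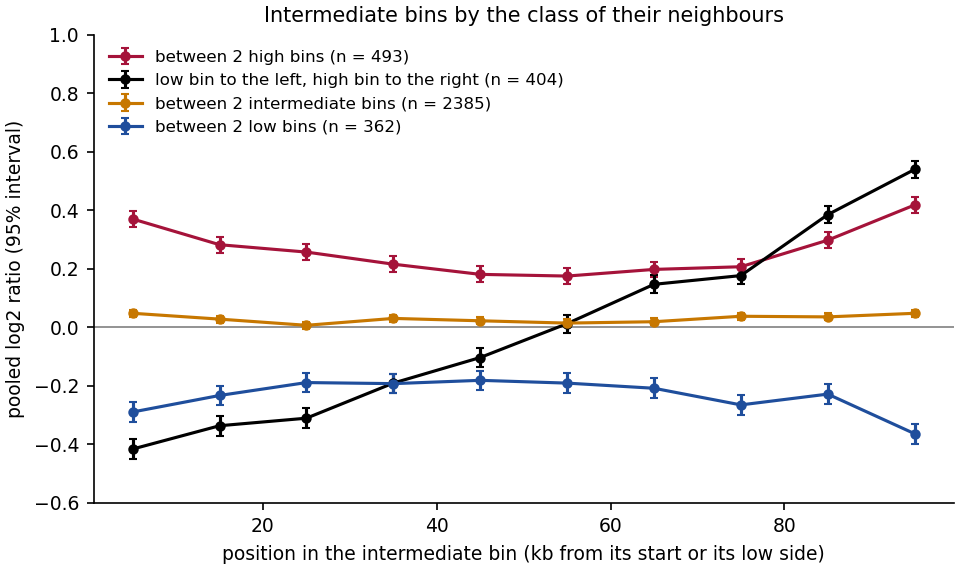
Pooled log2 ratio with 95% intervals (y axis) along intermediate bins (x axis, kb from the start of the bin, or from its low side where a low and a high bin flank it), by the class of both neighbours. The profile between a low and a high bin climbs from -0.42 to 0.54, and the one between 2 intermediate bins stays between 0.01 and 0.05.

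Runs of adjacent intermediate bins were short, with a median of 2 bins. There were 2876 runs, of which 1288 were single bins, and 26 reached 1 Mb, holding 4.37% of intermediate bins. The longest spanned 1.7 Mb. Next came chromosome 2, 120000001 to 121600000, at a log2 ratio of -0.10 (-0.15 to -0.05), with 33 peaks in 16 bins. Its bins ran from -0.47 to 0.31, 12 of the 16 were uneven and 4 were mixed. Chromosome 4, 152000001 to 153500000, stood at 0.09 (0.04 to 0.14) with 55 peaks. Of its 15 bins 10 were uneven and 7 mixed. Chromosome 13, 70700001 to 72100000, stood at -0.14 (-0.19 to -0.09) with 35 peaks. Of its 14 bins 13 were uneven and 5 mixed. Most bins of these runs were thus uneven, with excess SDs of 0.43, 0.49 and 0.55. In the whole class 82.7% were uneven and 50.8% mixed, with an excess SD of 0.56.

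Single autosomes differed little. Intermediate bins made up 23.1% (chromosome 15) to 34.5% (chromosome 9) of the bins of a chromosome, with a median of 29.2%. Their share of uneven bins ran from 78.2% to 86.4%, and mixed bins reached 56.5% on chromosome 14, with a median of 50.6% and the lowest share on chromosome 12. The excess SD ran from 0.54 to 0.58. The share without a peak midpoint varied more, from 8.33% on chromosome 2 to 18.6% on chromosome 8.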

How the data were processed

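The authors deposited, for each library, counts of reads per mapped position on mouse build mm9, each position given as a stretch of 350 bp. The submitters' processing notes name CASAVA and Bowtie 1.0.0. Not given in the sources used here: alignment settings and the caller's control and threshold. A line was read as 1 fragment, an assumption from the values. Per the file headers, peaks were called with MACS, and the authors' score per peak was used only to describe and rank peaks. Whether peaks were called on this library alone is not stated.

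Fragments were assigned by midpoint to bins and steps with numpy 2.4.6, pandas 2.3.3 and scipy 1.17.1 under Python 3.11.15. Step log2 ratios carry a pseudocount of 0.5 fragments, and counting variance was taken as the sum of inverse counts. Calls, and values of single named steps, carry none. The step test was checked on simulated counts. Members, measures and alternatives were chosen with earlier results of these data known. Named regions follow fixed rules: 4 bins of largest excess SD, 4 of lowest chi-square per degree of freedom, 3 with most peaks, 3 bins without a peak midpoint nearest 0, all with 10 usable steps, 2 bins on each side of each limit, and 3 longest runs. Chromosome 18 was left out of naming. Gene annotation and sequence of mm9 were not used here. Coordinates are 1-based.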

Additional observations from a re-analysis of the deposited data

How the results depend on the processing

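The alternatives centred on the median bin, 50 kb steps and the covariance between strands were added and chosen after seeing the data. No paired analysis was possible because each group had 1 library. The shares of uneven bins ran from 37.7% to 83.4% and those of mixed bins from 2.65% to 62.4% over all alternatives. With limits of -0.25 and 0.25 there were 3451 intermediate bins, 2789 uneven, 2121 mixed and 256 without a peak midpoint, fewer by construction. The 20 kb steps gave 1701 mixed bins and 789 with no called step, and the 50 kb steps 2575 uneven, 181 mixed and 3903 with no called step. A step threshold of 1 gave 1075 mixed bins and 1749 with no called step, and leaving out fragments in peaks gave 439 with none, against 165. Intermediate bins without a peak midpoint numbered 2126 when scaled outside peaks, 2195 when centred on the median bin and 2829 with only the higher-scoring peaks (above the median score), against 768. The excess SD of 0.56 became 0.53 scaled outside peaks, 0.53 centred, 0.55 on the shifted grid, 0.46 without fragments in peaks, 0.47 in 20 kb and 0.40 in 50 kb steps, 0.55 with a step minimum of 20, 0.53 with a pseudocount of 2 and 0.51 from the strands. The cause was not tested where the construction does not give it. Scaling, centring, other limits, the shifted grid and leaving out fragments in peaks also chose the bins again, and the last had 7985 intermediate bins of which 7814 could be tested. On the same bins as before, leaving out fragments in peaks gave an excess SD of 0.45. The balance of high and low steps turned with the scaling, from 10440 and 11271 to 22350 and 3817 on the same bins. The other 41 values stayed within 1.5 times, or for the excess SD within its interval. A single step has a counting SD of about 0.33, so moderate differences between steps of 1 bin were not detectable.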

Other observations

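Chromosome X lies outside the rule, and its bins were read in the same way. Of 1432 X bins 224 (15.6%, 13.8 to 17.6) had a log2 ratio from -0.5 to 0.5, against 29.2% on the autosomes. Of the 199 that could be tested, 71 (35.7%) were mixed, and the excess SD was 0.60. Peak midpoints were lacking in 136 (60.7%), against 11.2% of autosomal intermediate bins. Median depth in these X bins was 220 hMeDIP and 174 input fragments, and their counting SD was 0.48 against 0.33. The difference from the autosomes was not tested.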
